A study of Mus musculus with 6 samples.

Results

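Signals of the TGF-beta superfamily, which takes in the TGF-betas, bone morphogenetic proteins (BMPs) and activins, were examined in brown adipose tissue, the fat depot that burns fuel to make heat, through 40 genes fixed by name. They cover ligands, ligand-binding proteins, receptors, the intracellular Smad proteins and the Id genes that BMP signalling turns on. All probe sets whose platform gene symbol was on this list were taken. This gave 66 probe sets for 39 genes out of 20380 probe sets for 12393 genes, and Mstn, the muscle growth inhibitor myostatin, had no probe set under its symbol and is not analysed here. The RNA came from mice of 3.5 months, of mixed C57BL6 and 129 background, all kept on high fat food over 3 months, and was hybridised to Affymetrix arrays. The 3 control arrays are from YY1flox/flox mice and the 3 YY1bKO arrays from YY1flox/flox; Ucp1Cre mice, so both groups carry the floxed alleles of Yy1 and the YY1bKO group alone carries the Cre. That Cre is driven by the promoter of Ucp1, a gene of brown adipocytes, so the other cells of the tissue are not its target. Whether replicates are separate animals is not in the labels, so that p-values reflect a spread between samples that may be technical only.

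Ligands of this family bind pairs of type I and type II receptor kinases on the cell surface. BMP receptors phosphorylate Smad1, Smad5 and the product of Smad9, whereas TGF-beta and activin receptors phosphorylate Smad2 and Smad3, and all of these enter the nucleus with the common partner Smad4. Smad6 and Smad7 are induced by the pathways and restrain them, and Id1, Id2 and Id3 are early target genes of the BMP branch. In brown fat, BMP7 is known for promoting the formation of brown adipocytes and BMP8B for raising the heat response, while TGF-beta and activin signals are known for restraining adipocyte differentiation.

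YY1bKO tissue had lower transcript levels of the BMP ligand gene Bmp2, the activin subunit gene Inhbb, the TGF-beta receptor genes Tgfbr1 and Tgfbr2, the BMP transducer gene Smad1, the inhibitory gene Smad6 and the BMP target gene Id3. It had higher levels of the ligand gene Bmp8b and of Smad5, another BMP transducer. These 7 lower and 2 higher genes make 23.1% of the 39 measured, against 18.3% called over all 12393 genes (limma's moderated test, Benjamini-Hochberg adjusted p under 0.05). Over all genes 8.09% were called lower and 10.2% higher. The median log2 fold change was -0.12 over the 39 genes and 0.04 over all genes, and 24 of the 39 had a negative value. Groups did not overlap, meaning that all 3 YY1bKO values lay on one side of all 3 control values, in 15 of the 39 genes or 38.5%, which equals the 38.5% over all genes. The remaining 30 genes were not called, with log2 fold changes from -0.59 to 0.41, and 4 of them had an unadjusted p under 0.05.

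**Figure D1:**
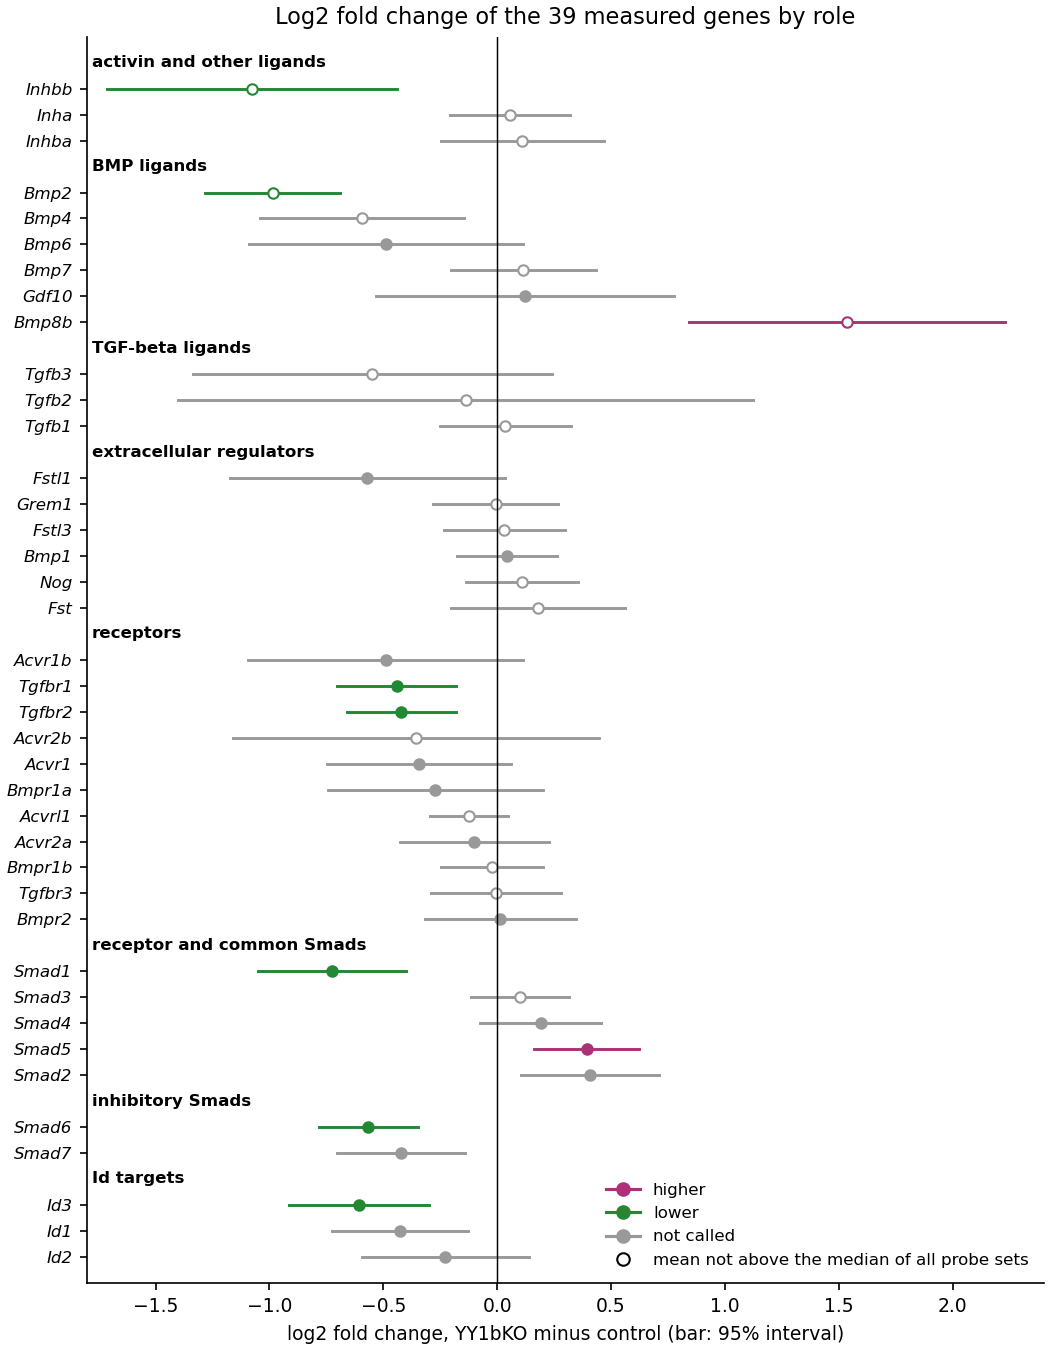
Log2 fold change (YY1bKO minus control, brightest probe set of each gene) of the 39 measured genes by role, with its 95% interval from limma as a bar. Green marks the 7 genes called lower, magenta the 2 called higher and grey the 30 not called, and an open circle marks a gene whose mean over the 6 arrays does not exceed the median over all probe sets; Bmp8b lies farthest to the right at 1.54 and Inhbb farthest to the left at -1.08.

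Each gene is represented by its brightest probe set, and levels are log2 intensities, for which the median over all probe sets was 6.48. A gene whose mean did not exceed that median is called dim here, since no detection calls were used, and 19 of the 39 genes were dim. Yy1 itself fell by 1.43 ± 0.10 (log2 scale, SE, adjusted p = 0.000854) in YY1bKO arrays. Control replicate 2 stood apart from the other 5 arrays on the second principal component, which held 36.0% of the variance, and its skeletal muscle markers were high: the mean of 10 muscle markers was 13.77 there, 11.02 to 11.21 in the other control arrays and 12.19 to 12.73 in YY1bKO arrays. Markers of brown adipocytes were bright in every array, with a mean of 7 markers from 11.50 to 11.83 in control and from 11.63 to 11.85 in YY1bKO arrays, and none of the 7 was dim. Of these 7, Ppargc1a and Elovl3 were called higher and none lower. The median log2 fold change of the 7 was nevertheless -0.14. Their summed intensity overlapped, at 44316 to 45670 in YY1bKO and 44926 to 50290 in control arrays. The mean of 8 endothelial markers was lower in all YY1bKO arrays, at 8.43 to 8.56 against 8.93 to 9.25 in control arrays. Their summed intensity was 3049 to 3395 in YY1bKO and 4299 to 5493 in control arrays, none was dim, and 4 of the 8 fell: Cdh5, Tek, Kdr and Cldn5. The mean of 8 pericyte and smooth muscle markers overlapped between the groups (8.36 to 9.07 in control, 8.57 to 8.70 in YY1bKO), while their summed intensity was lower in every YY1bKO array (7215 to 7546 against 8119 to 11362) and 3 of them fell, Pdgfrb, Rgs5 and Cspg4. The 4 measured Schwann cell markers also had a lower mean in every YY1bKO array, at 8.25 to 8.46 against 8.77 to 9.0, and a lower summed intensity, at 1496 to 1764 against 3869 to 4476. S100b was the only one of the 4 called, as lower, so this list does not show a fall of Schwann cell markers as a group. The median log2 fold change was nevertheless above 0 in both of these lists, at 0.18 for the pericyte and 0.05 for the Schwann cell markers. In tissue RNA, fewer cells of a type and less RNA per cell cannot be told apart. Many genes described here are used by vessel and stromal cells as well as adipocytes, and the part of the endothelial, pericyte and Schwann cell markers in their values was not tested.

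**Figure D2:**
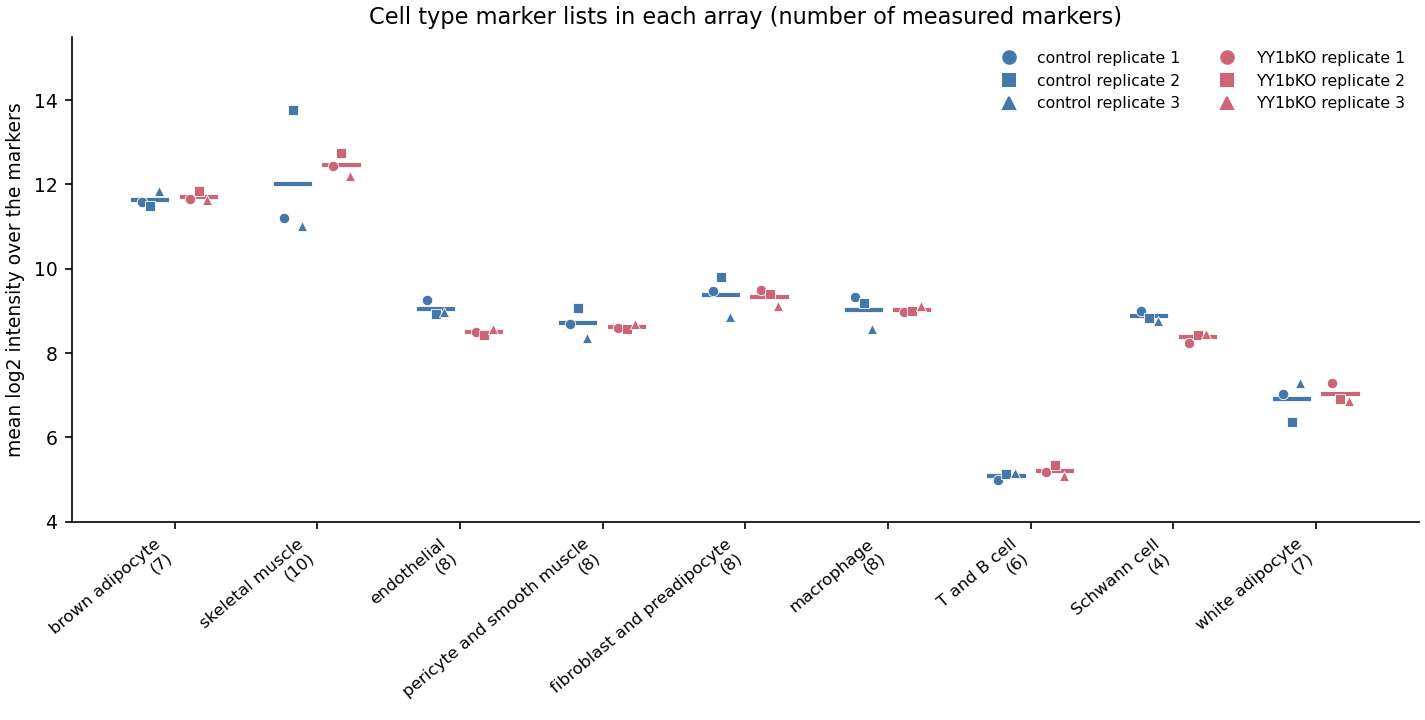
Mean log2 intensity over each marker list (number of measured markers in brackets) in each of the 6 arrays, with the group mean as a line. The endothelial list lies at 8.43 to 8.56 in the YY1bKO arrays and at 8.93 to 9.25 in the control arrays, and the skeletal muscle list is highest in control replicate 2, at 13.77.

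Among the BMP ligands, Bmp2 and Bmp8b moved in opposite directions. Bmp2, a ligand of the Smad1 and Smad5 branch, had log2 intensities of 5.61, 5.59 and 5.41 in control replicates 1, 2 and 3 and of 4.43, 4.43 and 4.79 in the YY1bKO replicates. Every YY1bKO value lay below every control value. Bmp2 fell by 0.99 ± 0.12 on the log2 scale (SE), or 1.98-fold (adjusted p = 0.00443), a dim gene that kept its call without any 1 array. Bmp8b, which encodes a BMP made by mature brown adipocytes, had 4.50, 4.97 and 5.38 in control and 6.41, 6.98 and 6.07 in YY1bKO replicates. All YY1bKO values were higher than all control values. Bmp8b, also dim, rose 2.90-fold (log2 fold change 1.54 ± 0.29, SE, adjusted p = 0.0152), and leaving out YY1bKO replicate 1 gave 1.58 with an adjusted p of 0.0551. Bmp8a, its near-identical relative, was read at 3.94 ± 0.08 in control and 4.22 ± 0.08 in YY1bKO arrays (SD, n = 3) and was not called (adjusted p = 0.0629). Probe sets of so similar a pair may share transcripts, so the Bmp8b value is uncertain in that respect.

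The other 4 ligand genes of the BMP group were not called. Bmp4, which helps commit stem cells to the fat lineage, had 5.96, 6.42 and 5.81 in control and 5.23, 5.49 and 5.69 in YY1bKO replicates. The groups did not overlap, and the log2 fold change was -0.59 ± 0.19 (SE, adjusted p = 0.0766). Bmp6, better known as the BMP that sets iron balance, had 8.09, 7.30 and 8.10 in control and 7.04, 7.37 and 7.62 in YY1bKO replicates. Control replicate 2 lay among the YY1bKO values, and the log2 fold change of -0.49 (adjusted p = 0.237) became -0.75 (adjusted p = 0.0196) without it. Bmp7 gave 0.12 (95% interval -0.20 to 0.43), at dim levels of 5.66 to 6.12 in the 6 arrays. Gdf10, also known as BMP3B, gave 0.12 (-0.53 to 0.78), with 7.90 in control replicate 1 against 6.82 and 6.98 in the other control arrays.

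Of the activin and inhibin subunits, Inhbb moved. Inhbb encodes the beta B chain of activin B, and its brighter probe set had 6.80, 6.75 and 6.76 in control replicates and 6.33, 5.20 and 5.56 in YY1bKO replicates. The control values lay close together (SD 0.03), while the YY1bKO values were spread (SD 0.58) and all lower. Inhbb fell by 1.08 ± 0.27 on the log2 scale (SE), or 2.11-fold (adjusted p = 0.0359). Both Inhbb probe sets were dim, and the lower one gave 5.91, 6.08 and 5.69 in control and 5.70, 5.91 and 5.87 in YY1bKO replicates, a log2 fold change of -0.07 with overlapping groups (adjusted p over all probe sets 0.771). Inhbb did not pass when control replicate 1 (adjusted p = 0.103) or 3 (0.0810) was left out, nor when YY1bKO replicate 2 (0.0883) or 3 (0.121) was, with log2 fold changes of -1.08 to -0.83. In the mean over both probe sets Inhbb gave -0.57 (adjusted p = 0.0277). Inhba, the beta A chain of activin A, and Inha, the inhibin alpha chain, gave 0.11 (-0.25 to 0.47) and 0.06 (-0.21 to 0.32) at dim levels.

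None of the 3 TGF-beta ligand genes was called, and all 3 were dim. Tgfb1 had 5.17, 5.37 and 4.92 in control and 5.22, 5.17 and 5.17 in YY1bKO replicates (log2 fold change 0.04, adjusted p = 0.871). Tgfb2 had 4.67, 6.60 and 4.51 in control and 5.34, 5.0 and 5.02 in YY1bKO replicates, so its single high value lay in the muscle-rich control replicate 2. Its log2 fold change was -0.14 (adjusted p = 0.890) with all arrays and 0.53 (adjusted p = 0.0246) without control replicate 2. Tgfb3 had 6.02, 7.21 and 5.98 in control and 5.95, 6.00 and 5.62 in YY1bKO replicates, again highest in control replicate 2 (log2 fold change -0.55, adjusted p = 0.311). Muscle markers were highest in the same array. With the mean of the muscle markers as a covariate, the log2 fold change was -0.76 for Tgfb3 (adjusted p = 0.00188) and -0.47 for Tgfb2 (adjusted p = 0.0573). When control replicate 2 was left out instead, Tgfb3 gave -0.14 (adjusted p = 0.461). The covariate and the omission of that array thus gave different results for both genes.

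The 6 extracellular regulators were not called. Fstl1, a secreted glycoprotein named for its follistatin-like domain, had 9.99, 10.04 and 9.07 in control and 9.06, 9.17 and 9.16 in YY1bKO replicates. Control replicate 3 lay within the YY1bKO range, and the log2 fold change was -0.57 (adjusted p = 0.177) with all arrays and -0.88 (adjusted p = 0.00637) without it. That array also had the lowest mean of 8 fibroblast and preadipocyte markers, at 8.85. The mean was 9.48 and 9.80 in the other control arrays and 9.12 to 9.49 in YY1bKO arrays. The part of these markers in the Fstl1 values was not tested. A further Fstl1 probe set gave -0.48. Fst, which traps activins, gave 0.18 (-0.20 to 0.56), and Bmp1, a protease that frees BMPs from their inhibitors, gave 0.04 (-0.18 to 0.26). The other Bmp1 probe sets, both dim, gave -0.21 and -0.12 and were not called. In the mean over its 3 probe sets Bmp1 gave -0.09 (adjusted p = 0.460). Fstl3, Grem1 and Nog, all secreted ligand traps, gave 0.03, -0.01 and 0.11 at dim levels.

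Of 11 receptor genes, 2 fell and none rose, and 10 of the 11 log2 fold changes were negative, while 5341 of all 12393 genes had a negative value. The signs were not all stable. Without control replicate 2, Acvr2a (0.05), Acvr2b (0.06) and Bmpr1b (0.01) turned positive and Bmpr2 (-0.09) turned negative. The 2 called receptor genes make 18.2% of the 11, close to the 18.3% over all genes. Tgfbr2, the type II receptor that binds TGF-beta, had 10.19, 10.05 and 10.37 in control and 9.80, 9.72 and 9.82 in YY1bKO replicates. Tgfbr1, the type I receptor it activates, had 9.05, 9.28 and 8.90 in control and 8.62, 8.65 and 8.64 in YY1bKO replicates. Both genes were lower in every YY1bKO array, and the YY1bKO values lay closer together than the control values. Tgfbr2 fell by 0.42 ± 0.10 (SE, 1.34-fold, adjusted p = 0.0315) and Tgfbr1 by 0.44 ± 0.11 (1.36-fold, adjusted p = 0.0362) on the log2 scale. Each gene has 2 further dim probe sets, whose log2 fold changes lay between -0.11 and 0.02, and in the mean over probe sets neither was called (Tgfbr2 -0.17, adjusted p = 0.294; Tgfbr1 -0.18, adjusted p = 0.107). Leaving out control replicate 1 (adjusted p = 0.0919) or any YY1bKO array (0.109 to 0.114) also ended the Tgfbr1 call. For Tgfbr2 this held for control replicates 1 (0.0858) and 3 (0.0649) and for every YY1bKO array (0.0886 to 0.114).

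The BMP and activin receptor genes were not called in their brightest probe sets. Acvr1b, a type I activin receptor also called ALK4, had 8.30, 9.09 and 8.05 in control and 8.05, 7.96 and 7.96 in YY1bKO replicates. The groups did not overlap, but control replicate 3 lay next to YY1bKO replicate 1, and the log2 fold change was -0.49 (adjusted p = 0.237). Acvr1, also called ALK2, gave -0.34 (-0.75 to 0.06). Its second probe set did not overlap between the groups, with 6.08, 6.25 and 6.02 in control and 5.82, 5.83 and 5.71 in YY1bKO replicates (-0.33, adjusted p over all probe sets 0.0526). Bmpr1a, a type I BMP receptor with 5 probe sets, was mixed: the brightest gave -0.27, 3 gave 0.09 to 0.15, and the dimmest gave -0.48 and passed over all probe sets (adjusted p = 0.0498). Acvrl1, the type I receptor ALK1 of vessel lining cells, had 6.08, 6.06 and 6.01 in control and 5.99, 5.89 and 5.90 in YY1bKO replicates, a difference of -0.12 with no overlap (adjusted p = 0.299). Acvr2b, an activin type II receptor, was highest in control replicate 2, at 6.55 against 5.16 to 5.51 elsewhere (log2 fold change -0.36, adjusted p = 0.520, or -0.57, adjusted p = 0.00785, with the muscle covariate). With control replicate 2 left out, Acvr2b gave 0.06 (adjusted p = 0.771). Acvr2a, another activin type II receptor, and Bmpr2, the BMP type II receptor, gave -0.10 and 0.01. A dim second Acvr2a probe set had 5.57, 5.69 and 5.77 in control and 5.84, 5.81 and 5.89 in YY1bKO replicates. It gave 0.17 with no overlap (adjusted p over all probe sets 0.219). Bmpr1b and the co-receptor gene Tgfbr3 gave -0.02 and 0.00 at dim levels.

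Smad1 and Smad5, whose products carry the same BMP signal, moved apart. Smad1 had 8.58, 8.24 and 8.15 in control and 7.63, 7.45 and 7.71 in YY1bKO replicates, with no overlap. It fell by 0.73 ± 0.14 on the log2 scale (SE), or 1.65-fold (adjusted p = 0.0150). A further Smad1 probe set had 7.13, 6.77 and 6.78 in control and 6.29, 6.11 and 6.57 in YY1bKO replicates, and it also fell (-0.57, adjusted p over all probe sets 0.0478). Smad5 had 7.95, 7.81 and 7.88 in control and 8.37, 8.11 and 8.34 in YY1bKO replicates. It rose by 0.39 ± 0.10 on the log2 scale (SE), or 1.31-fold (adjusted p = 0.0346). The dimmer Smad5 probe set, with 5.03, 4.79 and 5.17 in control and 5.86, 5.69 and 5.59 in YY1bKO replicates, rose by 0.72 (adjusted p over all probe sets 0.0121). Both probe sets of each gene were called, each pair in its own direction. Smad1 missed the threshold when YY1bKO replicate 1 (-0.74, adjusted p = 0.0547) or 2 (-0.65, 0.0613) was left out. Smad5 missed it when control replicate 1 (0.43, adjusted p = 0.0724) or 3 (0.39, 0.0781) was left out, and likewise for YY1bKO replicates 1 (0.35, 0.119) and 3 (0.36, 0.121).

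The Smads of the TGF-beta and activin branch and the common Smad were not called. Smad2 had 8.05, 7.64 and 8.0 in control and 8.35, 8.20 and 8.35 in YY1bKO replicates. All YY1bKO values were above all control values, by 0.41 ± 0.13 on average (log2 scale, SE, adjusted p = 0.0732). Smad4, the shared partner, gave 0.19, 0.03 and 0.26 in its 3 probe sets (lowest adjusted p over all probe sets 0.143). Smad3 gave 0.10 (-0.11 to 0.31) at a dim level.

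The inhibitory Smads, which are also target genes of the pathways, had lower values in every YY1bKO array. Smad6, the inhibitor that favours the BMP branch, had 7.93, 8.08 and 8.03 in control and 7.32, 7.48 and 7.55 in YY1bKO replicates. It fell by 0.57 ± 0.09 on the log2 scale (SE), or 1.48-fold (adjusted p = 0.00895), and kept its call without any 1 array. Smad7, which restrains both branches, had 7.63, 7.32 and 7.42 in control and 6.93, 7.21 and 6.96 in YY1bKO replicates. Its log2 fold change was -0.42 ± 0.12 (SE, adjusted p = 0.0519) and -0.49 (adjusted p = 0.0271) without control replicate 2.

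Among the Id genes, whose products block basic helix-loop-helix transcription factors, Id3 fell. Id3 had 9.42, 9.70 and 9.45 in control and 9.09, 8.96 and 8.70 in YY1bKO replicates. The groups did not overlap, and Id3 fell by 0.61 ± 0.13 on the log2 scale (SE), or 1.52-fold (adjusted p = 0.0214). Id3 just missed the threshold when control replicate 1 was left out (-0.66, adjusted p = 0.0502) and missed it too in the fits lacking YY1bKO replicate 2 (-0.63, 0.0699) or 3 (-0.50, 0.0657). Id1 had 9.77, 9.73 and 9.97 in control and 9.40, 9.59 and 9.20 in YY1bKO replicates, again with no overlap (-0.43 ± 0.12, SE, adjusted p = 0.0602), and its adjusted p was 0.0453 without control replicate 2 (-0.47). Id2 overlapped between the groups, with 7.43, 7.91 and 7.58 in control and 7.62, 7.23 and 7.39 in YY1bKO replicates (-0.23, adjusted p = 0.361). A further bright Id2 probe set had no overlap, with 7.55, 8.28 and 7.41 in control and 7.30, 6.90 and 7.36 in YY1bKO replicates (-0.56, adjusted p over all probe sets 0.176). Smad6, Smad7, Id1 and Id3 are active in vessel lining cells, and the lower endothelial markers given above moved the same way as these genes. Their part in these values was not tested.

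**Figure D3:**
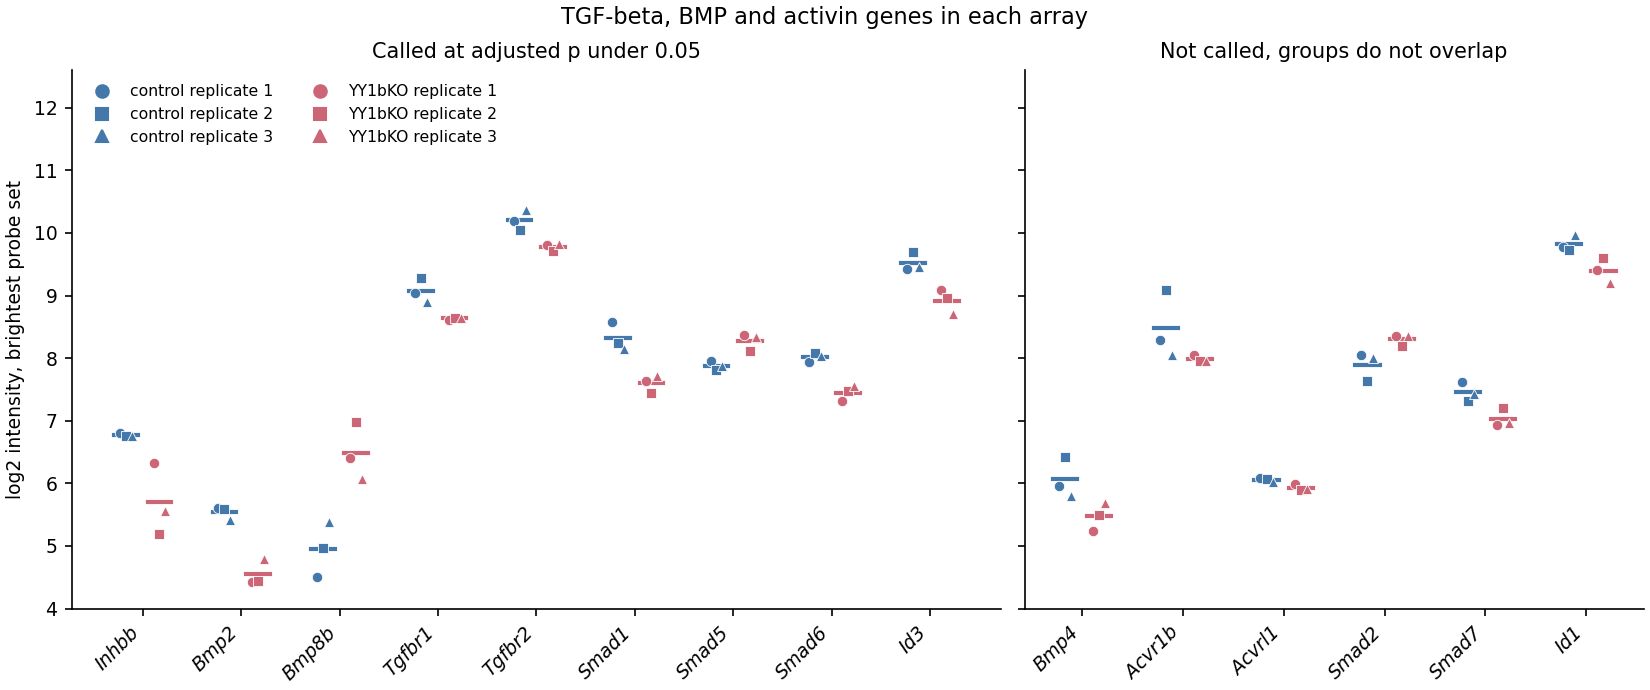
Log2 intensity of the brightest probe set in each array for the 9 called genes (left) and the 6 genes that were not called but whose groups do not overlap (right), with the group mean as a line. Bmp8b, Smad5 and Smad2 are higher in the YY1bKO arrays and the other 12 genes lower, and the 3 Inhbb values of the YY1bKO arrays spread from 5.20 to 6.33.

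Over all 66 probe sets of the 39 genes, 12 passed when adjusted over the 20380 probe sets, 9 lower and 3 higher. This is 18.2%, against 16% over all probe sets. Of the 27 probe sets that were not the brightest of their gene, 3 passed: the second ones of Smad1 and Smad5 and the dimmest of Bmpr1a. No gene had probe sets called in both directions.

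**Figure D4:**
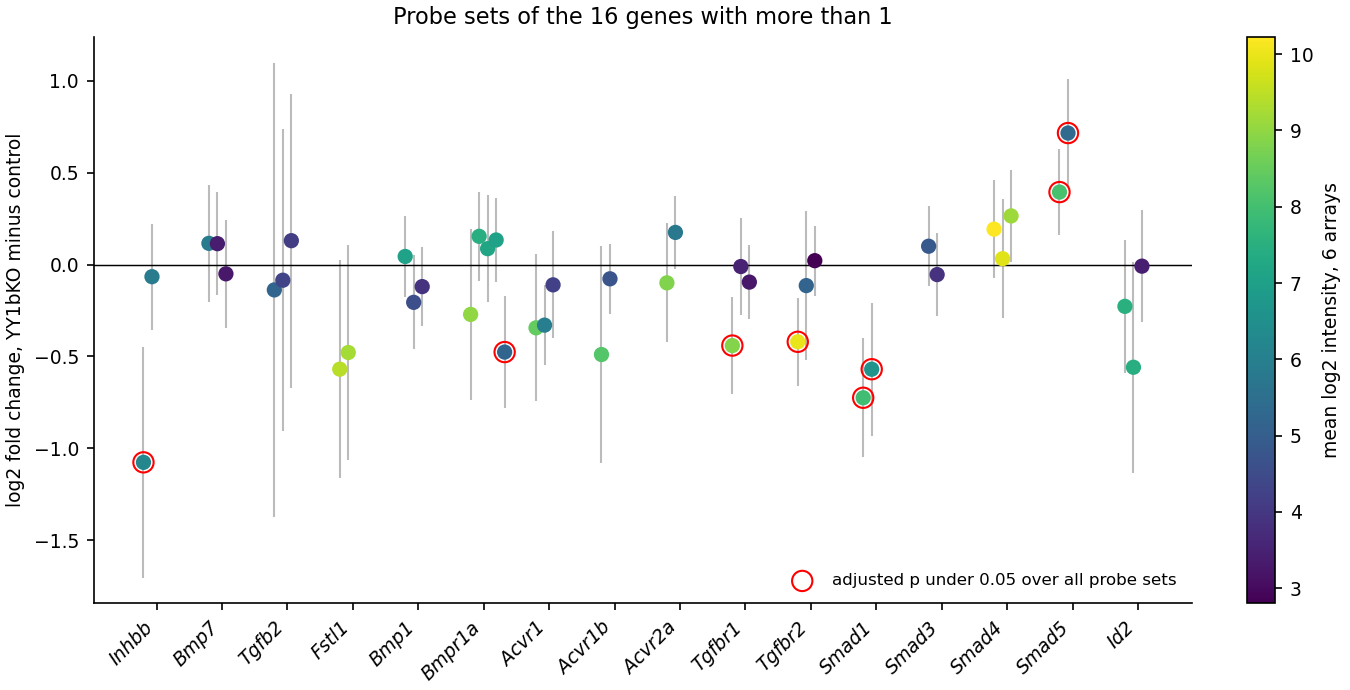
Log2 fold change with 95% interval of every probe set of the 16 genes that have more than 1, coloured by mean log2 intensity, from the brightest at the left of each gene to the dimmest at the right. Red rings mark an adjusted p under 0.05 over all probe sets; the pairs of Smad1 (-0.73 and -0.57) and Smad5 (0.39 and 0.72) are ringed, while Inhbb, Tgfbr1 and Tgfbr2 are ringed in the brightest probe set only.

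The promoters of called genes from both directions are shown because Smad1 and Id3 fell while Smad5 and Bmp8b rose. Each sequence runs 5′ to 3′ on the gene's strand from 250 bases before to 50 bases after a RefSeq start (GRCm38.p6), with motif matches in capitals.
Smad1, chr8:79399379-79399678, minus strand: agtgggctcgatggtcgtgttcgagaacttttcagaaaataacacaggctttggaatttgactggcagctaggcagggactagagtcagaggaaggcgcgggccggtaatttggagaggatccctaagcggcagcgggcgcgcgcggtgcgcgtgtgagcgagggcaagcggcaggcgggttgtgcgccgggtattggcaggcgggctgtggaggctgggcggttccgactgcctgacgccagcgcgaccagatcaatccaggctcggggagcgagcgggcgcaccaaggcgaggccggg
Id3, chr4:136143572-136143871, plus strand: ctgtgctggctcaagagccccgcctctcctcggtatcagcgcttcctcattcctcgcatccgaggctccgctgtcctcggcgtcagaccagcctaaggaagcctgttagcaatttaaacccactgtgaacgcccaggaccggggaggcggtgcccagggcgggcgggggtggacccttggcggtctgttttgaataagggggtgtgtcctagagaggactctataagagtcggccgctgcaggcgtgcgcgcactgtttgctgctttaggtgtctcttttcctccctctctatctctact
Smad5, chr13:56702802-56703101, plus strand: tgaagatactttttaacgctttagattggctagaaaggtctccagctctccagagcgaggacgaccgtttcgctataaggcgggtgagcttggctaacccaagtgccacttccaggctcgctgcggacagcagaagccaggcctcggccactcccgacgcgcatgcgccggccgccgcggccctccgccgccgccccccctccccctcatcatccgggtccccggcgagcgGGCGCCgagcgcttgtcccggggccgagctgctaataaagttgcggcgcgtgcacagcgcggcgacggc
Bmp8b, chr4:123104911-123105210, plus strand: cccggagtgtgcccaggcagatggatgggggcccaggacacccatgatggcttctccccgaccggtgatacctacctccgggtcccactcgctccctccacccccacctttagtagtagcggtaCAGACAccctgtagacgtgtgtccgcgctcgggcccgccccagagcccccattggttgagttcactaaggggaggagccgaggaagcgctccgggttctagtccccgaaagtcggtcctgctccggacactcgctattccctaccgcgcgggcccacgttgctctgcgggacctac
The motifs searched, on both strands, were the YY1 core AANATGGC, the BMP-SMAD element GGCGCC and the CAGA element CAGACA of Smad3 and Smad4. The capitals in the printed Smad5 window are a BMP-SMAD element at -19 to -14 from the start, and those in the Bmp8b window are a CAGA element at -126 to -121. The Smad5 position depends on the start chosen. From another RefSeq start the same element lies downstream, at 24 to 29, and the window of a further Smad5 start holds no match. The Smad1 and Id3 windows hold none of these letters, which says nothing about the factors themselves. Matches were not confined to genes called higher. Tgfbr1, called lower, has a BMP-SMAD element at -233 to -228 in 1 window and a CAGA element at -203 to -198 in another. The windows of Inhbb, Smad6 and Tgfbr2, also called lower, hold no match. Windows were found for 27 of the 39 genes, 32 in all, since a gene can have several. The YY1 core was in 1 of these 27, Acvr2b, and in 6.96% of all 27025 genes with a window. The BMP-SMAD element was in 8 of the 27 genes, Tgfbr1 and Smad5 among them, and in 13.4% of all genes with a window. The CAGA element was in 5 of the 27 genes, Bmp8b and Tgfbr1 among them, and in 23.6% of all genes with a window. The windows of the 27 genes held 47.7% to 83.7% G and C, against a median of 52.7% over all windows, and no matches of different motifs overlapped in them.

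Other genes of the superfamily were taken from a list of 79 symbols, of which 59 were measured. Of these, 6 fell, 2 rose and 51 were not called, so that 13.6% were called against 18.3% over all genes. All 6 that fell were extracellular regulators, a group of 16 measured genes. They make 37.5% of that group, against 8.09% called lower over all genes. The share is given for this group because the 6 lower calls fell in it. Its median log2 fold change was -0.02, 10 of its 16 values were negative and 8 of the 16 genes were dim. The largest fold change of the 16 was that of Thbs1, a dim gene with non-overlapping groups that was not called (-1.46, adjusted p = 0.0699). None of the 6 extracellular regulators among the 39 genes was called. Ltbp2, which belongs to the latent TGF-beta binding proteins of the matrix, had 8.98, 8.77 and 9.32 in control and 7.62, 7.62 and 7.75 in YY1bKO replicates and fell by 1.36 ± 0.14 on the log2 scale (SE, 2.57-fold, adjusted p = 0.00267). Ltbp3, which holds latent TGF-beta in the matrix, had 10.95, 10.96 and 10.83 in control and 10.52, 10.07 and 10.26 in YY1bKO replicates (-0.63, adjusted p = 0.0177). Ltbp4 of the same family gave -0.30 (adjusted p = 0.0413). All 3 had non-overlapping groups, whereas Ltbp1 overlapped and gave -0.02 (adjusted p = 0.961).

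The secreted serine proteases Htra1 and Htra3, which bind ligands of this family, also fell. Htra1 had 9.84, 9.81 and 9.55 in control and 8.99, 8.72 and 8.86 in YY1bKO replicates (-0.88 ± 0.11, SE, adjusted p = 0.00473). Htra3 had 10.28, 9.83 and 10.04 in control and 9.13, 8.99 and 8.97 in YY1bKO replicates (-1.02 ± 0.13, SE, adjusted p = 0.00443), though in the mean over its 3 probe sets it gave -0.29 (adjusted p = 0.141). Crim1, a membrane protein that binds BMPs, fell by 0.61 (adjusted p = 0.0160). In fits lacking control replicate 1, YY1bKO replicate 2 or YY1bKO replicate 3, Ltbp3 had an adjusted p of 0.0631, 0.0557 and 0.0700, and Crim1 of 0.0585, 0.0655 and 0.0664. Ltbp4 missed the threshold in each fit lacking 1 array (adjusted p 0.0541 to 0.133) except the one lacking control replicate 3.

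Map3k7, the kinase TAK1 that TGF-beta and BMP receptors also activate, had 7.51, 7.46 and 7.70 in control and 8.17, 8.06 and 8.13 in YY1bKO replicates. It rose by 0.56 ± 0.09 (log2 scale, SE, adjusted p = 0.00873), or by 0.23 (adjusted p = 0.0627) in the mean over its 5 probe sets. Tgif1, a corepressor of Smad2 and Smad3, rose by 0.60 ± 0.12 (SE, adjusted p = 0.0180). Tgif1 missed the threshold when control replicate 1 (0.0594) or any YY1bKO array was left out (0.0593 to 0.0736). None of the 14 other ligand genes, 5 other receptor genes or 11 other target genes was called by limma, and all 14 ligand genes were dim. Among the targets, Ccn2, a matrix protein gene induced by TGF-beta, was at 8.40 ± 0.92 in control and 7.33 ± 0.49 in YY1bKO arrays (SD, n = 3), a log2 fold change of -1.07 with overlapping groups (adjusted p = 0.172). Tgfbi, named for its induction by TGF-beta, gave -0.32 (adjusted p = 0.318), and Id4 gave -0.06 (adjusted p = 0.726). These are not typical of the 11 other target genes, whose median log2 fold change was 0.08, with 4 negative values. The 2 with non-overlapping groups were both higher in YY1bKO arrays, Runx1 at 0.25 (adjusted p = 0.0831) and Msx1 at 0.22 (adjusted p = 0.126). Junb gave 0.42 and Klf10 0.36, with overlapping groups.

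With single arrays left out, the 9 called genes kept their direction each time, while the number called among the 39 ranged from 4 to 13. It was 13 without control replicate 2 (3 higher and 10 lower, against 25% called over all genes), 7 without control replicate 3 and 4 without any of the other 4 arrays. Counts over all genes moved too, from 8.17% called without YY1bKO replicate 2 to 25% without control replicate 2. Bmp2 and Smad6 were called in all 6 of these fits. With the muscle marker mean as a covariate, 17 of the 39 genes were called, 3 higher and 14 lower, against 29.3% over all genes. These 17 include the 9 called without it, and the added ones are Acvr1, Acvr1b, Acvr2b, Bmp4, Bmpr1a, Smad7 and Tgfb3 as lower and Smad2 as higher. Of the added genes, only Smad7 was also called without control replicate 2. In that fit Bmp4 gave -0.41, Acvr1b -0.18, Acvr1 -0.16, Tgfb3 -0.14, Bmpr1a -0.04 and Acvr2b 0.06. The added calls therefore depend on how the muscle-rich array is handled.

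**Figure D5:**
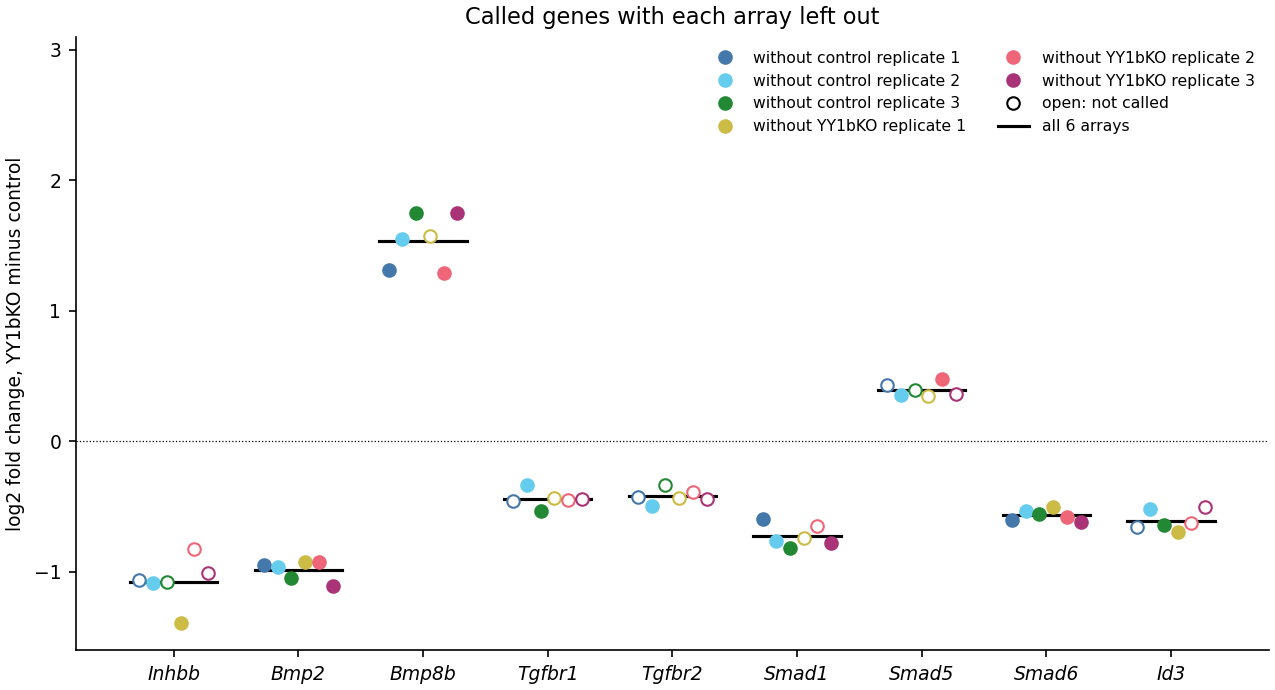
Log2 fold change (YY1bKO minus control) of the 9 called genes with all 6 arrays (black line) and with each array left out in turn (circles, filled where limma's adjusted p is under 0.05 and open where it is not). All circles lie on the same side of 0 as the line, and the circles of Bmp2 and Smad6 are filled in all 6 fits.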

How the data were processed

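Total RNA (6 ug) was labelled with biotin for Affymetrix arrays, per the labels' protocols. The authors deposited a linear intensity per probe set and array; RMA is the tool in the submitters' processing notes, with no version or options stated. RMA equalises array distributions, which hides a shift of most transcripts, and understates fold changes of dim probe sets. Scan dates and batches were not used here.

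Intensities were turned to log2 values with no pseudocount. Names came from the platform annotation, leaving out 64 control probe sets, 691 with several symbols and 1555 unnamed here. Each gene was read from its brightest probe set over the 6 arrays. The fit over all 12393 genes used limma 3.58.1 (R 4.3.3; lmFit, eBayes, group as the sole term, two-sided, Benjamini-Hochberg over all genes, called under 0.05). SE is limma's moderated error, and 95% intervals come from the same fit. The fit was tested on simulated data. Every member is described by role. Values per array are given for called members, for those whose probe sets disagree and, chosen after their values were seen, for other members near a call or shifted by 1 array. Of the other pathway genes, up to 8 called ones are named, with a few more chosen after their values were seen. Members and lists were chosen with earlier results of these data known, so lists are described by counts and medians, without a test. Promoters are RefSeq windows (GRCm38.p6). Alternatives were the mean over probe sets, adjustment over all probe sets, leaving out dim genes, quantile normalization, median centring, trend and robust eBayes, array weights, a block for the replicate number, a fold of at least 1.5, a muscle covariate and leaving out each array. The precision is limited by the number of arrays, 3 in each group.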

Additional observations from a re-analysis of the deposited data

How the results depend on the processing

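Of the 39 measured genes, 20 were tested under 16 alternatives and the 19 dim ones under 15. None of the 9 called genes changed sign, and 32 of their 141 values lost the call, Bmp2 never doing so. Members called higher and lower were 2 and 7. They were 1 and 7 with dim genes left out (Id1 and Smad7 gained; Inhbb, Bmp2 and Bmp8b not tested; 20 members tested, and 30.3% called over all genes), 1 and 4 with a fold of at least 1.5, and 3 and 14 with the muscle covariate. Without single arrays they ranged from 0 to 3 higher and from 2 to 10 lower. Among the other pathway genes, 2 were called higher and 6 lower. The higher count was 5 with array weights, 1 when probe sets were averaged, 1 with a fold of at least 1.5 and 6 with the muscle covariate, and single arrays moved the counts from 1 to 5 higher and from 3 to 9 lower. Over all genes, 1267 were higher and 1003 lower. These were 469 and 562 with a fold of at least 1.5, 1802 lower with the muscle covariate, and 547 to 1661 higher and 466 to 1439 lower without single arrays. Tgfb2 turned from -0.14 to 0.53 without control replicate 2 and ranged from -0.51 over the fits lacking 1 array. With the replicate number as a block, 1 member was higher and 5 lower, 1 other pathway gene was higher, and 671 genes were higher and 639 lower; same-numbered arrays deviated together with r of -0.25, 0.11 and 0.26, so the numbers were not taken as pairs. The causes were not tested.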
